A study of Mus musculus with 12 samples.

Results

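Interferon-stimulated genes, the sensors that lead to their induction, and the genes of MHC class I antigen presentation were followed in 2 mouse islet tumour cell lines with and without the kinase inhibitor GW8510. The list named 45 genes. Each was read from the probe set (the group of probes on the array that reads 1 transcript) with the highest mean over all 12 arrays, among probe sets that carry 1 gene symbol. This gave values for 41 of the 45 members, of 12255 genes read in all. H2-T23, Psme2 and Isg15 lie on probe sets with several gene symbols, and Ifi44 has no probe set under that symbol in the table used here, so none of these 4 was analysed here.

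The lines were alpha cells (αTC1) and beta cells (βTC3), established from islet tumours of transgenic mice in which the SV40 large T antigen was expressed from the glucagon or the insulin promoter, and both groups of each line therefore carry the transgene. GW8510, a putative CDK2 inhibitor, was given at 3.3 µM in 0.1% DMSO, and the controls received 0.1% DMSO alone. The titles and the compound field of every treated sample give GW8510, which is used here, but the source label of treated replicates 2 and 3 names a compound number higher by 1 and 2, and the growth notes name only the alpha line. Cells were collected on day 5, after fresh medium with new compound on day 3, and 3 biological replicates of each of the 4 groups were hybridised to Affymetrix mouse expression arrays. The values are array intensities, which do not count RNA molecules, so the level of a gene was compared between arrays for 1 probe set. Averages over a role, sums over markers and the rank that gave the dimmest 25% of genes pool different genes. They describe signal on the arrays and not amounts of RNA.

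Type I interferons signal through a receptor pair and the kinases JAK1 and TYK2 to a complex that holds STAT2 and IRF9 and binds the interferon-stimulated response element (ISRE) of its target genes. Interferon gamma acts on the gamma-activated sequence (GAS) of its targets and raises IRF1, which drives the immunoproteasome and the class I pathway. That pathway cuts proteins into peptides, carries the peptides into the endoplasmic reticulum through the TAP transporter and loads them on class I heavy chains paired with beta-2-microglobulin. Islet cells are known to raise class I and the chemokine CXCL10 when exposed to interferons.

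The deposited values were taken to log2 and fitted with limma, with all 12 arrays in 1 fit. Adjusted p-values were computed over all 12255 genes, and "called" means an adjusted p under 0.05. Errors of log2 fold changes are standard errors and errors of intensities are SD over 3 arrays. Beta GW8510 replicate 3 was the brightest array, with a median of 199.9 against 174 to 182 on the others, and that array and alpha GW8510 replicate 1 had the fewest probe sets at the lower bound of 20 (739 and 703, against 951 to 1109). Of the markers of the lines, Ins2 and Iapp were at the upper bound of 20000 on every beta array and at 96.8 ± 1.82 and 139.8 ± 8.88 in alpha cells with DMSO. Gcg was at the upper bound on every alpha array, but it also reached 6420.2 ± 367 in the beta line with DMSO. Of the 5 alpha cell markers read, Gcg, Irx2 and Pou3f4 were called lower in the beta line with DMSO. Ttr was called higher there (log2 ratio 1.26), and Slc38a5 was not called. Ttr stood at the upper bound in the beta line, so its ratio is compressed, and its other probe sets gave 1.95 and 2.85. The 6 beta cell markers read were all called higher in the beta line. Because the cultures were read in bulk, fewer cells with a transcript and less RNA per cell cannot be told apart.

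In alpha cells, 20 of the 41 members rose and 5 fell with GW8510, where 41.3% of all genes were called, 20.2% higher and 21.2% lower. The 16 other members were not called. The median log2 fold change of the members was 0.23, against 0.03 over all genes. B2m, Ifih1, Cxcl10, Tap1, Tapbp and Ifi35 rose by at least 2-fold and Dhx58 fell by at least 2-fold, shares of all genes that were 2.61% and 2.43%. The 3 treated and the 3 control arrays lay entirely apart for 27 members, against 51.4% of all genes.

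In beta cells, 15 members rose and 4 fell, where 34.1% of all genes were called, 19.7% higher and 14.3% lower, and 22 members were not called. Their median log2 fold change was 0.20, against 0.07 over all genes. Only Cxcl10 and Rsad2 rose by 2-fold or more among the members, against 1.2% of all genes, and none fell that far (0.677% of all genes). The arrays of 24 members lay apart, against 45.9% of all genes.

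**Figure D1:**
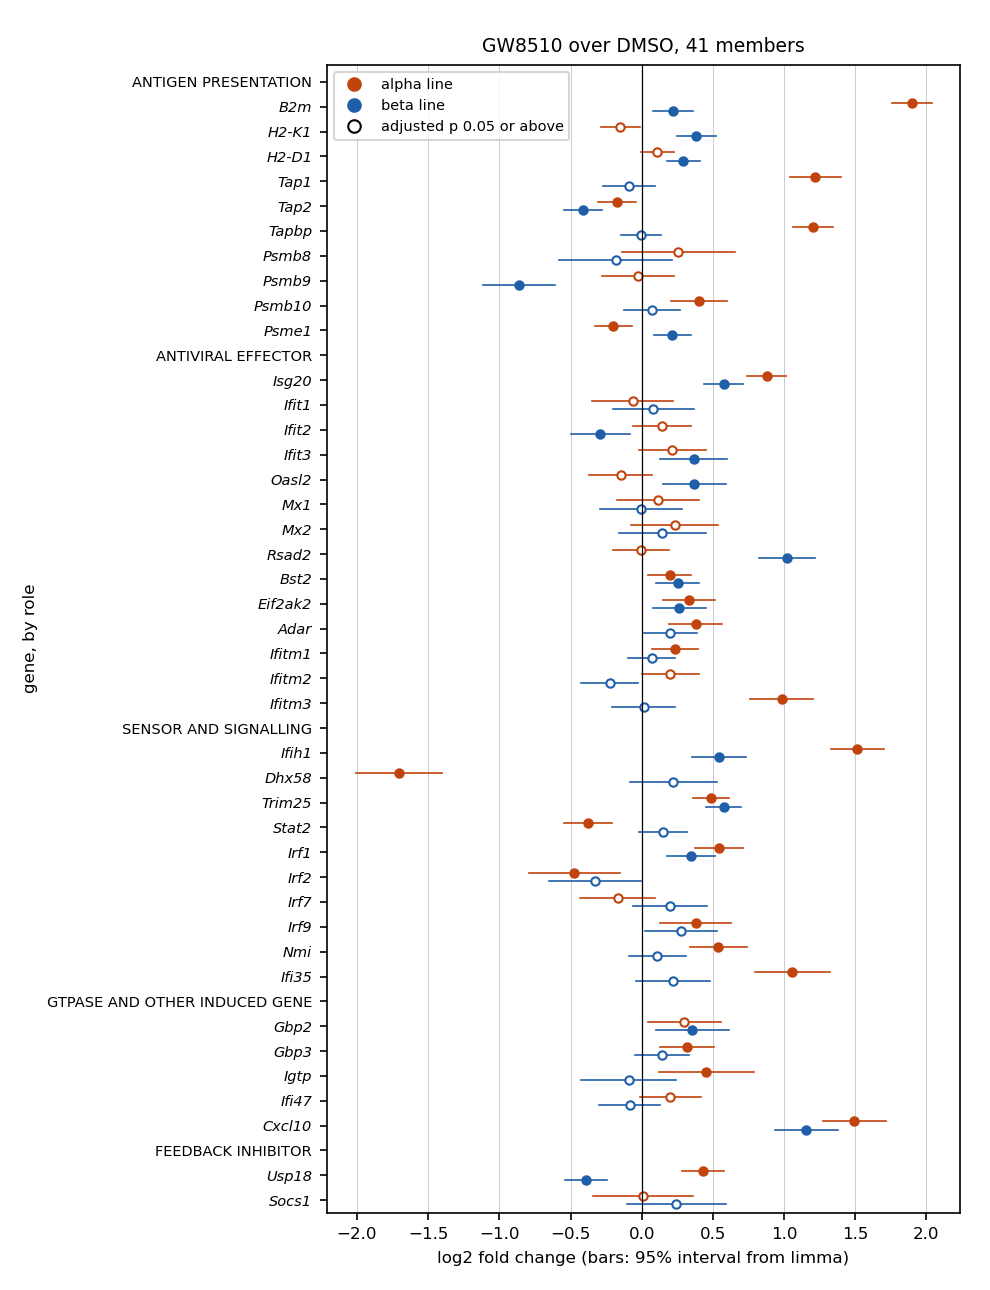
Log2 fold change of GW8510 over DMSO in alpha cells (orange) and beta cells (blue) for the 41 members read, ordered by role. Bars are 95% intervals from limma, and open points have an adjusted p of 0.05 or above; B2m stands at 1.90 in alpha cells and 0.22 in beta cells, and Dhx58 at -1.71 in alpha cells.

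The promoters of the members were searched for the core letters of both elements. For the ISRE these were GAAA, any 2 bases and GAAA, and for the GAS TTC, any 3 bases and GAA, on both strands and with overlaps kept, from 250 bases before to 50 bases after each transcription start in the RefSeq table of GRCm38.p6, where 40 of the 45 listed genes had an entry. An ISRE match lay in 19 of these 40 genes, against 3.99% of 27025 genes (3.44% of 32851 promoters), and a GAS match in 11 of 40, against 9.55% of genes (8.30% of promoters). By role, the ISRE letters stood in 3 of 11 antigen presentation genes and in 8 of 13 antiviral effectors. Among members read on the arrays with a promoter in the table, they stood in 8 of the 19 that rose in alpha cells and 9 of the 17 that did not, and in 9 of the 15 that rose in beta cells and 8 of the 21 that did not. A match describes the letters in the window and does not show that a factor binds there.

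The 250 bases before the start are printed for 7 members whose values are described below, with ISRE and GAS matches in capitals. They comprise B2m, Cxcl10, Isg20, Irf1 and Bst2, which rose in both lines, Rsad2, which was called in beta cells, and Tap1, which was called in alpha cells and holds neither set of letters in this window. They were chosen with these values known. Where a gene had several starts, one with a match was taken. The windows are B2m at chr2:122147437-122147686 (plus strand), Tap1 at chr17:34187306-34187555 (plus strand), Cxcl10 at chr5:92348890-92349139 (minus strand), Rsad2 at chr12:26456453-26456702 (minus strand), Isg20 at chr7:78913174-78913423 (plus strand), Irf1 at chr11:53769764-53770013 (plus strand) and Bst2 at chr8:71537473-71537722 (minus strand), all in GRCm38.p6 and read from RefSeq 5′ to 3′ on the gene's strand.
B2m: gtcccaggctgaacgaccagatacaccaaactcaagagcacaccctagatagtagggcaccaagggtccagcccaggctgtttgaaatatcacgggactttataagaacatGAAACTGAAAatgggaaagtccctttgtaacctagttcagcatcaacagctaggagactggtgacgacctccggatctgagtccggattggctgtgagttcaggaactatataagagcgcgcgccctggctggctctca
Tap1: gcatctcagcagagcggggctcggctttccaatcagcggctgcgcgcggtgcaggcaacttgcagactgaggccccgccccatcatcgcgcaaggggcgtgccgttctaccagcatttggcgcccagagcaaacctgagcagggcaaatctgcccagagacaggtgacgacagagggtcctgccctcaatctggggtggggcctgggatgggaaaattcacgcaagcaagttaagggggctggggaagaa
Cxcl10: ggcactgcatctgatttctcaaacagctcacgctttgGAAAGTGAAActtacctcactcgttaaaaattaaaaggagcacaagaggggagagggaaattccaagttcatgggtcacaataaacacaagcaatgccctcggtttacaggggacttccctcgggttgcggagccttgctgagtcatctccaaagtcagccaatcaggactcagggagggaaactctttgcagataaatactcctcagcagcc
Rsad2: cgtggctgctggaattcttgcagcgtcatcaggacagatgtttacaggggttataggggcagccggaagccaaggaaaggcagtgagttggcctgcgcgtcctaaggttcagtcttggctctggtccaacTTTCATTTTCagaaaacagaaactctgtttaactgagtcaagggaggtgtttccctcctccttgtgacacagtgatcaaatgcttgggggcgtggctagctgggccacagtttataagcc
Isg20: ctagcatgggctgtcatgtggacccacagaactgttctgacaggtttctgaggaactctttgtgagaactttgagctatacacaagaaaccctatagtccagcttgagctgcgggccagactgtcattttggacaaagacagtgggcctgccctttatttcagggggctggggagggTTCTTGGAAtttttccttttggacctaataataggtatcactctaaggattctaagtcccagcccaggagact
Irf1: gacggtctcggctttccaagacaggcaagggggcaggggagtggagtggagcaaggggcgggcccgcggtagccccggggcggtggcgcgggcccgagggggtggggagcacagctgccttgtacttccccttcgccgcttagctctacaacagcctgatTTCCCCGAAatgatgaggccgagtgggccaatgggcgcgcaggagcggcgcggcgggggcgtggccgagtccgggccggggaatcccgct
Bst2: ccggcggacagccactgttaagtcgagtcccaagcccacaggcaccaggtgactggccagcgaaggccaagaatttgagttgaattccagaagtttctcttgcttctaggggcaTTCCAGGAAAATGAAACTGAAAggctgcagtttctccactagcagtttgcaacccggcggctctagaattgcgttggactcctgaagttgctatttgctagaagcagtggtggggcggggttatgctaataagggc
The capitals mark an ISRE match from -139 to -130 in B2m, from -213 to -204 in Cxcl10 and, on the opposite strand, from -120 to -111 in Rsad2, counted from the start. Isg20 and Irf1 hold a GAS match each, from -73 to -65 and from -90 to -82. In Bst2, 2 ISRE matches and 1 GAS match overlap in a run of 22 bases that ends at -115.

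Among the genes of antigen presentation, GW8510 raised the light chain, 1 subunit of the transporter (Tap1), the peptide loading factor and Psmb10 in alpha cells, while Tap2 and Psme1 fell and the heavy chains were not called there. In beta cells the light chain, both heavy chains and Psme1 rose, and Tap2 and Psmb9 fell. B2m, the light chain of every class I molecule, read 282, 246 and 252 on the alpha DMSO arrays and 1015, 929.6 and 958 on the alpha GW8510 arrays. In beta cells the values were 5215, 4990.0 and 5144 with DMSO and 5770.4, 5829 and 6264 with GW8510. Treated arrays lay above the controls in both lines, by 3.72-fold in alpha cells (log2 fold change 1.90 ± 0.06, adjusted p = 9.02e-10) and by 1.16-fold in beta cells (log2 fold change 0.22 ± 0.06, adjusted p = 0.0202). The beta call was lost without beta DMSO replicate 2 (adjusted p = 0.0703) or beta GW8510 replicate 3 (adjusted p = 0.0589). The other B2m probe set gave 0.15 in beta cells (adjusted p = 0.0953 in a limma fit of all probe sets).

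Tap1, a subunit of the peptide transporter, read 152, 144 and 159 with DMSO and 346, 353 and 358 with GW8510 in alpha cells. The treated arrays were all above the controls, by 2.33-fold (log2 fold change 1.22 ± 0.08, adjusted p = 2.14e-07). In beta cells Tap1 read 178, 189 and 219 with DMSO and 168, 186 and 197 with GW8510, and these groups overlapped (log2 fold change -0.09 ± 0.08, adjusted p = 0.446). The 2 other probe sets of Tap1 were dimmer and gave log2 fold changes of 0.14 and 0.07 in alpha cells (adjusted p = 0.288 and 0.711 in a limma fit of all probe sets). The rise and its size therefore rest on 1 probe set.

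Tapbp, which encodes tapasin, the bridge between the transporter and the class I molecule, read 541, 516 and 593 with DMSO and 1253, 1265 and 1278 with GW8510 in alpha cells. These groups lay apart by 2.30-fold (log2 fold change 1.20 ± 0.06, adjusted p = 3.21e-08). The beta arrays read 2466, 2593 and 2268 with DMSO and 2380.3, 2429 and 2491 with GW8510, and overlapped (95% interval of the log2 fold change -0.15 to 0.14). The other probe set of Tapbp, at 209 with DMSO, gave 0.18 in alpha cells.

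Tap2, the partner of Tap1 in the transporter, fell in both lines. Its arrays read 176, 162 and 163 with DMSO and 145, 150.3 and 148 with GW8510 in alpha cells, and 338, 323 and 322 with DMSO and 233, 239.9 and 267 with GW8510 in beta cells. Every treated array was below every control array of its line, with a fall in alpha cells (log2 fold change -0.17 ± 0.06, adjusted p = 0.0414) and a larger one in beta cells (log2 fold change -0.41 ± 0.06, adjusted p = 2.93e-04). The alpha call was lost without any 1 of the arrays other than beta GW8510 replicates 1 and 3 (adjusted p = 0.0504 to 0.157), and the lines were not shown to differ (adjusted p = 0.0651 for the difference).

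The heavy chain H2-K1 read 1739, 1836 and 1924 with DMSO and 1681, 1705 and 1567 with GW8510 in alpha cells, with the treated arrays all lower but no call (log2 fold change -0.15 ± 0.06, adjusted p = 0.0752). The beta arrays read 8039.6, 7624 and 8348 with DMSO and 10374, 10002 and 10952 with GW8510, all treated arrays above the controls (log2 fold change 0.38 ± 0.06, adjusted p = 4.95e-04). H2-D1, the other heavy chain, had a log2 fold change of 0.11 in alpha cells (adjusted p = 0.126) and 0.29 in beta cells (adjusted p = 0.00105). All 4 probe sets of H2-K1 and 7 of the 9 of H2-D1 are of a design that can bind related class I transcripts, so these values may hold RNA of paralogs. With the brighter of the 2 H2-D1 probe sets of the specific design, alpha cells gave -0.57 (adjusted p = 0.00453), opposite in sign to the value above, and the beta call was lost (adjusted p = 0.491).

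The immunoproteasome subunits replace the standard catalytic subunits of the proteasome when cells meet interferon. Psmb9 read 454, 407 and 440.1 with DMSO and 221, 247 and 249.9 with GW8510 in beta cells, entirely apart and 1.82-fold lower with GW8510 (log2 fold change -0.86 ± 0.12, adjusted p = 1.31e-04). In alpha cells it read 139, 117 and 129 with DMSO and 119, 154 and 108 with GW8510, with overlap (log2 fold change -0.03 ± 0.12, adjusted p = 0.886). Psmb8 was not called in alpha cells (log2 fold change 0.26 ± 0.18, adjusted p = 0.301), where it read 114, 113 and 95.9 with DMSO and 189, 112 and 99.2 with GW8510 and 1 treated array stood above the others. In beta cells it read 1393, 1566 and 1536 with DMSO and 1315, 1325 and 1314 with GW8510, with every treated array below the controls and no call (log2 fold change -0.18 ± 0.18, adjusted p = 0.482). Psmb10 rose in alpha cells (log2 fold change 0.40 ± 0.09, adjusted p = 0.00316) and had 0.07 in beta cells (adjusted p = 0.570). Psme1, a subunit of the proteasome activator PA28, fell in alpha cells (log2 fold change -0.20 ± 0.06, adjusted p = 0.0171) and rose in beta cells (log2 fold change 0.22 ± 0.06, adjusted p = 0.0149). Its alpha call was lost without alpha DMSO replicate 3 or alpha GW8510 replicate 2 (adjusted p = 0.0742 and 0.0730), and its beta call without beta DMSO replicate 2 (adjusted p = 0.0677).

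**Figure D2:**
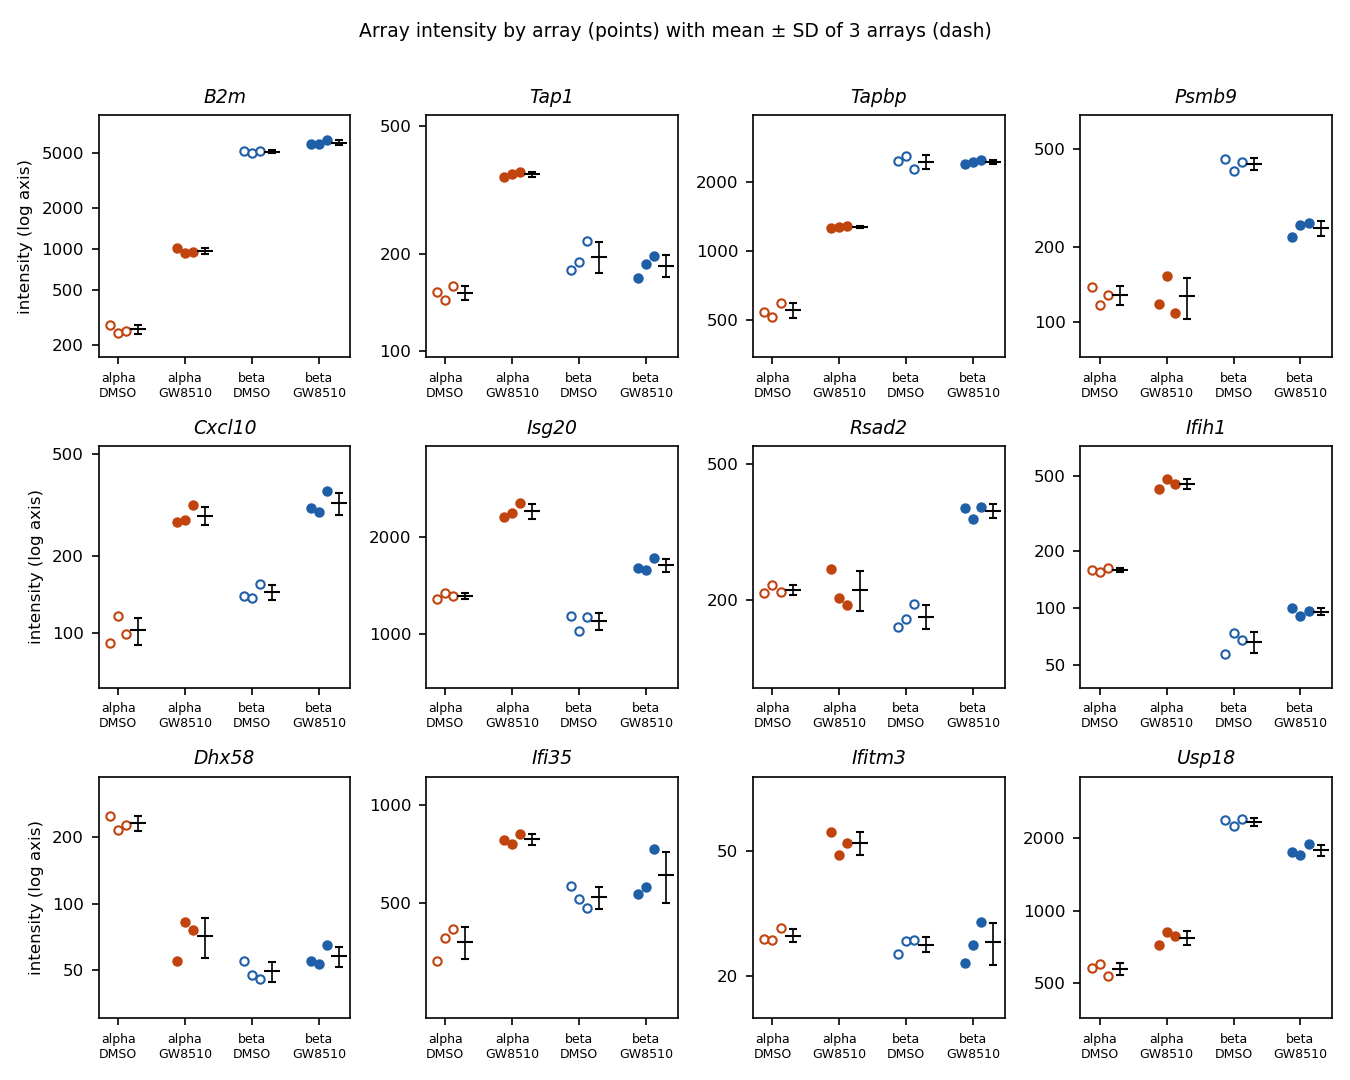
Intensity of 12 members on each array, on log axes, by line and treatment (open points DMSO, filled points GW8510), with the mean ± SD of 3 arrays beside them. B2m, Tap1, Tapbp, Ifih1, Ifi35 and Ifitm3 moved more in alpha cells than in beta cells, Rsad2 stood at 364 with GW8510 against 179.6 with DMSO in beta cells, and Usp18 moved in opposite directions.

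Beta cells with DMSO held a higher level of nearly every antigen presentation gene than alpha cells. Of the 10 genes, 9 were higher and none was lower in the limma fit, at an adjusted or an unadjusted p under 0.05, where 55.7% of all genes were called, 26.8% higher and 28.9% lower. Their median log2 ratio was 1.94, against -0.05 over all genes, and 7 differed by at least 2-fold (7.89% of all genes were higher by that much). Over all 41 members, 22 were higher and 8 lower, 12 and 3 of them by at least 2-fold (7.14% of all genes were lower by that much), and the arrays of 33 members lay apart, against 65.8% of all genes. B2m was 19.7-fold higher (log2 ratio 4.30 ± 0.06, adjusted p = 1.40e-13), H2-D1 19.8-fold, Psmb8 14.0-fold (log2 ratio 3.80 ± 0.18, adjusted p = 2.82e-09), Tapbp 4.44-fold, H2-K1 4.37-fold, Psmb9 3.39-fold, Psme1 2.00-fold and Tap2 1.96-fold. The probe sets of H2-D1 gave log2 ratios from -0.03 to 4.51, with 2.10 for the brighter one of the specific design, and those of H2-K1 from 0.99 to 3.95. For Tapbp the log2 ratio was 2.15 with the probe set used and 0.98 with the other. Tap1 was 1.29-fold higher, a call that ended with the mean of its probe sets (adjusted p = 0.537), and Psmb10 was not called (adjusted p = 0.485). The alpha DMSO and the beta DMSO arrays also enter the comparisons with GW8510, so these ratios are not independent of the fold changes above. With GW8510, B2m in alpha cells reached 967 ± 43.2, below every beta array, and Tapbp reached 1265 ± 12.5 against 2442 ± 164 in beta cells with DMSO. Tap1 in treated alpha cells, at 353 ± 6.09, exceeded every beta array. Each line is 1 line, so line and culture cannot be told apart.

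**Figure D3:**
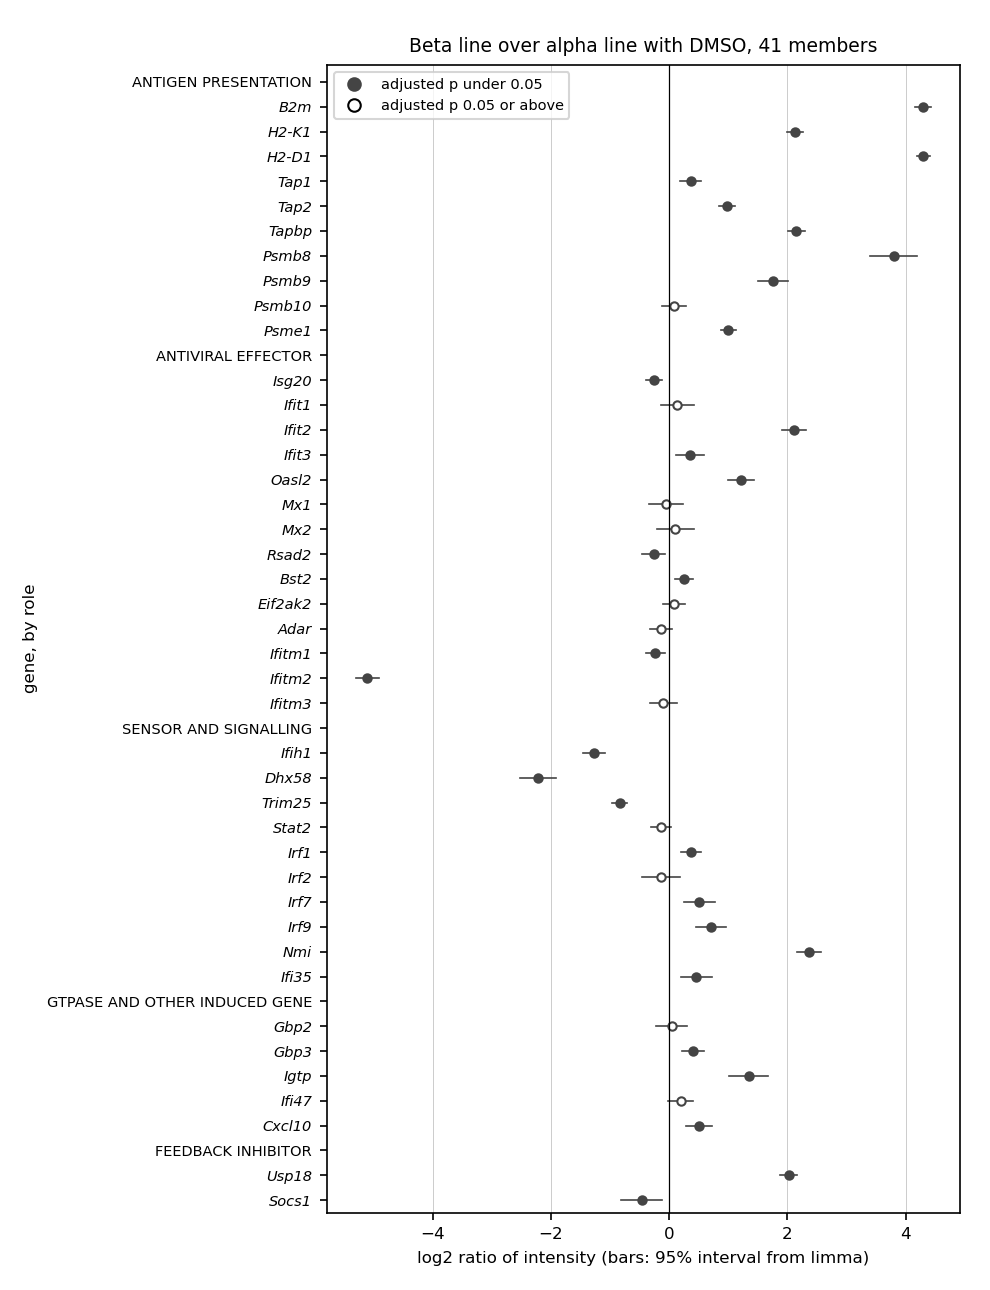
Log2 ratio of intensity in beta cells over alpha cells, both with DMSO, for the 41 members by role, with 95% intervals from limma and open points for an adjusted p of 0.05 or above. The antigen presentation genes lie at or to the right of 0, up to 4.30 for B2m and H2-D1, while the antiviral effectors lie on both sides, down to -5.11 for Ifitm2.

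Antiviral effectors act on viral RNA, proteins or membranes inside the cell. In alpha cells, 6 of the 14 read were called (42.9%, close to the 41.3% of all genes), all higher, and 1 more had an unadjusted p under 0.05 in the limma fit, also higher. In beta cells 6 were higher and 1 lower (50% called, against 34.1% of all genes). Isg20, an exonuclease that degrades RNA, read 1288, 1343 and 1315 with DMSO and 2315, 2377 and 2566 with GW8510 in alpha cells. In beta cells it read 1141, 1022 and 1133 with DMSO and 1604, 1582 and 1721 with GW8510. Both treated groups lay above their controls (log2 fold change 0.88 ± 0.06, adjusted p = 3.56e-07 in alpha cells and log2 fold change 0.58 ± 0.06, adjusted p = 2.76e-05 in beta cells).

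Rsad2, which encodes viperin, a radical SAM enzyme that makes a chain-terminating nucleotide, rose in beta cells. It read 167, 176 and 195 with DMSO and 372, 346 and 375 with GW8510 there, entirely apart and 2.03-fold higher (log2 fold change 1.02 ± 0.09, adjusted p = 5.19e-06). The alpha arrays read 210.0, 222 and 212 with DMSO and 247, 204 and 194 with GW8510 and overlapped (95% interval of the log2 fold change -0.20 to 0.19). The 2 other Rsad2 probe sets gave 0.99 and 1.19 in beta cells. The ISRE letters of its promoter are shown above.

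Ifitm3, a membrane protein that restricts viral entry, showed the reverse. In alpha cells it read 26.2, 26.1 and 28.3 with DMSO and 57.6, 48.8 and 53.1 with GW8510, all treated arrays above all controls (log2 fold change 0.98 ± 0.10, adjusted p = 7.56e-06). The beta arrays, at 23.5, 25.8 and 26.1 with DMSO and 21.9, 25.1 and 29.6 with GW8510, overlapped (log2 fold change 0.01 ± 0.10, adjusted p = 0.939). Ifitm3 is in the dimmest 25% of genes on these arrays, and its related gene Ifitm2, chosen for mention after its values were seen, stood at 2866 ± 209 in alpha cells with DMSO against 83.0 ± 6.69 in beta cells (log2 ratio -5.11 ± 0.09, adjusted p = 6.16e-13), the widest gap between the lines among the members read. Ifitm2 was not called with GW8510 in either line (log2 fold changes of 0.20 and -0.23).

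Ifit3, of a family of proteins that bind foreign RNA ends, read 90.9, 94.3 and 94.0 with DMSO and 113, 109 and 140.1 with GW8510 in beta cells, which lay apart (log2 fold change 0.37 ± 0.11, adjusted p = 0.0204). In alpha cells its arrays read 81.6, 69.8 and 67.8 with DMSO and 96.0, 78.8 and 79.9 with GW8510 and overlapped (log2 fold change 0.22 ± 0.11, adjusted p = 0.139). Oasl2, a member of the oligoadenylate synthetase family, read 53.4, 65.3 and 63.4 with DMSO and 75.4, 76.6 and 82.7 with GW8510 in beta cells, also apart (log2 fold change 0.37 ± 0.10, adjusted p = 0.0137). Its alpha arrays read 27.3, 25.7 and 24.8 with DMSO and 20, 25.6 and 25.04 with GW8510, close to the lower bound. The Oasl2 call in beta cells also ended with quantile normalization (adjusted p = 0.0610). Both beta calls were lost without beta DMSO replicate 1 or beta GW8510 replicate 3 (adjusted p = 0.0520 to 0.0774). Ifit2 fell in beta cells (log2 fold change -0.29 ± 0.09, adjusted p = 0.0319), a call lost without any 1 of beta DMSO replicates 1 and 3 and beta GW8510 replicates 1 and 2 (adjusted p = 0.0901 to 0.0983).

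The called changes of the remaining effectors were smaller. Bst2, which tethers budding virus to the cell, rose in both lines (log2 fold change 0.20 in alpha cells, adjusted p = 0.0384, and 0.25 in beta cells, adjusted p = 0.0140), as did Eif2ak2, the RNA-activated kinase PKR (log2 fold change 0.33 in alpha cells, adjusted p = 0.00709, and 0.26 in beta cells, adjusted p = 0.0305). The other Eif2ak2 probe set gave 0.09 in alpha cells and 0.16 in beta cells (adjusted p = 0.359 and 0.120 in a limma fit of all probe sets). Adar and Ifitm1 were called higher in alpha cells (log2 fold changes of 0.38 and 0.23). The Bst2 call in alpha cells was lost without any 1 of alpha DMSO replicates 2 and 3, alpha GW8510 replicate 1, beta DMSO replicate 2 and beta GW8510 replicate 1 (adjusted p = 0.0503 to 0.133), and in beta cells without beta DMSO replicate 1 (adjusted p = 0.0669). That of Eif2ak2 in beta cells was lost without any 1 of beta DMSO replicates 2 and 3 and beta GW8510 replicates 1 and 3 (adjusted p = 0.0547 to 0.109), and that of Ifitm1 with quantile normalization (adjusted p = 0.135) or without alpha DMSO replicate 1 or alpha GW8510 replicate 1 (adjusted p = 0.108 and 0.0794). Ifit1, Mx1 and Mx2 were called in no comparison and lie in the dimmest 25% of genes, with group means of 22.3 to 54.1.

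Set side by side, neither antigen presentation nor the antiviral effectors moved uniformly. With GW8510 in alpha cells the median log2 fold change was 0.18 over the 10 antigen presentation genes (range -0.20 to 1.90) and 0.21 over the 14 antiviral effectors (range -0.15 to 0.98), against 0.03 over all genes. In beta cells it was 0.04 (range -0.86 to 0.38) and 0.17 (range -0.29 to 1.02), against 0.07 over all genes. In alpha cells the largest rises were 3.72-fold for B2m, 2.33-fold for Tap1 and 2.30-fold for Tapbp in the first group, and 1.98-fold for Ifitm3 and 1.84-fold for Isg20 among the effectors. The difference between the roles was not tested. Averaged over the genes of a role on each array, the log2 level of antigen presentation was 8.47 ± 0.04 with DMSO and 8.92 ± 0.06 with GW8510 in alpha cells, and 10.56 ± 0.03 and 10.52 ± 0.03 in beta cells. The same average of the antiviral effectors was 6.89 ± 0.02 and 7.15 ± 0.05 in alpha cells, and 6.75 ± 0.03 and 6.96 ± 0.08 in beta cells. The averages of both roles lay apart between treated and control arrays in alpha cells, whereas in beta cells those of antigen presentation overlapped and those of the effectors did not. These averages describe the lists and were not tested, and a few genes can move them. For antigen presentation in alpha cells, B2m, Tap1 and Tapbp rose most, while the median log2 fold change was 0.18. The other probe sets of Tap1 and Tapbp gave 0.07 to 0.18 there, so this average does not show a shift of the whole role.

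Of the 10 sensors and signalling genes, 6 rose and 3 fell in alpha cells (90% called, against 41.3% of all genes), and 3 rose in beta cells (30%, below the 34.1% of all genes), with changes past 2-fold in both directions in alpha cells. Ifih1, which encodes MDA5, a sensor of long double-stranded RNA, read 158, 154 and 162 with DMSO and 422, 478 and 454 with GW8510 in alpha cells. The beta arrays stood at 56.6, 73.0 and 67.6 with DMSO and 99.2, 90.9 and 95.6 with GW8510. Treated and control arrays lay apart in both lines, by 2.86-fold in alpha cells (log2 fold change 1.52 ± 0.09, adjusted p = 4.86e-08) and 1.46-fold in beta cells (log2 fold change 0.54 ± 0.09, adjusted p = 4.22e-04).

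Dhx58, which encodes LGP2, a relative of MDA5 that modulates its signalling, moved the other way in alpha cells. It read 249.7, 215 and 227 with DMSO and 55.3, 83.0 and 76.5 with GW8510, entirely apart and 3.26-fold lower with GW8510 (log2 fold change -1.71 ± 0.14, adjusted p = 1.03e-06). With DMSO, Dhx58 was 4.66-fold lower in beta cells (log2 ratio -2.22 ± 0.14, adjusted p = 3.15e-08), which read 55.3, 47.8 and 45.6 with DMSO and 55.0, 53.6 and 65.0 with GW8510 and overlapped (log2 fold change 0.22 ± 0.14, adjusted p = 0.248). The 2 other Dhx58 probe sets, at 56.0 and 38.4 with DMSO, gave 0.06 and -0.06 in alpha cells, and log2 ratios of -0.06 and -0.23 between the lines, so the fall and the gap between the lines both rest on 1 probe set.

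Trim25, the ubiquitin ligase that activates the sensor RIG-I, rose in both lines. It read 1326, 1293 and 1441 with DMSO and 1940.4, 1891 and 1848 with GW8510 in alpha cells, and 770.4, 769 and 733 with DMSO and 1094, 1108 and 1184 with GW8510 in beta cells. No treated array overlapped a control of its line (log2 fold change 0.49 ± 0.06, adjusted p = 2.46e-05 in alpha cells and log2 fold change 0.58 ± 0.06, adjusted p = 1.39e-05 in beta cells). Its 2 other probe sets gave 0.51 and 0.10 in alpha cells and 0.35 and 0.44 in beta cells.

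Of the factors that read the ISRE, Stat2 fell and Irf9 rose in alpha cells. Stat2 read 137, 126 and 130.2 with DMSO and 92.9, 104 and 107 with GW8510 there, apart (log2 fold change -0.37 ± 0.08, adjusted p = 0.00178), and 117, 123 and 118 with DMSO and 119, 144 and 136 with GW8510 in beta cells, overlapping (log2 fold change 0.15 ± 0.08, adjusted p = 0.160). Irf9 read 58.1, 50.5 and 50.8 with DMSO and 72.7, 74.7 and 60.5 with GW8510 in alpha cells (log2 fold change 0.38 ± 0.11, adjusted p = 0.0188). Its beta arrays read 79.3, 89.7 and 91.3 with DMSO and 99.5, 93.7 and 124 with GW8510, also apart but not called (log2 fold change 0.28 ± 0.11, adjusted p = 0.0850). The alpha call of Irf9 was lost without any 1 of alpha DMSO replicates 2 and 3 and alpha GW8510 replicates 1 and 2 (adjusted p = 0.0636 to 0.0740). The other Stat2 probe set gave -0.12 in alpha cells.

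Irf1, which drives class I genes downstream of interferon gamma and carries a GAS match in the window shown, read 428, 481 and 467 with DMSO and 734, 665 and 611 with GW8510 in alpha cells. The beta arrays read 599, 559 and 615 with DMSO and 742, 719 and 791 with GW8510. It rose in both lines with no overlap (log2 fold change 0.54 ± 0.08, adjusted p = 9.80e-05 in alpha cells and log2 fold change 0.35 ± 0.08, adjusted p = 0.00415 in beta cells). Irf2, which binds the same sites and can oppose Irf1, fell in alpha cells (log2 fold change -0.47 ± 0.15, adjusted p = 0.0218), a call lost without any 1 of alpha DMSO replicates 1 and 2 and alpha GW8510 replicate 1 (adjusted p = 0.0739 to 0.0863). Irf7, the amplifier of type I interferon, was called in neither line (log2 fold changes of -0.17 and 0.20).

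Nmi and Ifi35, partner proteins induced by interferon, rose in alpha cells. Ifi35 read 329, 389.5 and 415 with DMSO and 779, 758 and 816 with GW8510, apart by 2.08-fold (log2 fold change 1.06 ± 0.12, adjusted p = 1.58e-05). The beta arrays read 563, 513 and 480.2 with DMSO and 531, 561 and 732 with GW8510 and overlapped (log2 fold change 0.22 ± 0.12, adjusted p = 0.190). Nmi read 118, 128 and 116 with DMSO and 180.1, 149 and 199 with GW8510 in alpha cells (log2 fold change 0.54 ± 0.09, adjusted p = 4.31e-04), and 631, 630.3 and 598 with DMSO and 664, 645 and 697 with GW8510 in beta cells, where the treated arrays were all higher without a call (log2 fold change 0.11 ± 0.09, adjusted p = 0.396). With DMSO, Nmi was 5.15-fold higher in beta cells than in alpha cells.

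Cxcl10, the chemokine that draws activated T cells and is known from inflamed islets, rose in both lines. It read 91.8, 116 and 99.2 with DMSO and 272, 276 and 315 with GW8510 in alpha cells. Its beta arrays stood at 140.0, 137 and 156 with DMSO and 309, 298 and 359 with GW8510. All treated arrays stood above their controls, by 2.82-fold (log2 fold change 1.49 ± 0.10, adjusted p = 2.19e-07) and 2.23-fold (log2 fold change 1.16 ± 0.10, adjusted p = 5.20e-06), and the interval of the difference between the lines was -0.65 to -0.03 on the log2 scale (adjusted p = 0.104).

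The interferon-induced GTPases attack membranes around intracellular microbes, and those read here were faint apart from Igtp. Gbp2 read 26.8, 30.5 and 24.7 with DMSO and 34.9, 32.6 and 37.2 with GW8510 in beta cells, apart (log2 fold change 0.35 ± 0.12, adjusted p = 0.0347), and 27.7, 28.5 and 23.5 with DMSO and 38.5, 28.8 and 31.3 with GW8510 in alpha cells, also apart but not called (log2 fold change 0.30 ± 0.12, adjusted p = 0.0590). The beta call was lost without any 1 of beta DMSO replicates 1 and 3 and beta GW8510 replicates 1 and 3 (adjusted p = 0.0783 to 0.120), and with quantile normalization (adjusted p = 0.0595). Gbp3 and Igtp were called higher in alpha cells (log2 fold changes of 0.32 and 0.45, the arrays of Igtp overlapping), Gbp3 not with quantile normalization (adjusted p = 0.0894) or without alpha DMSO replicate 1 (adjusted p = 0.0534), and Igtp not without any 1 of alpha DMSO replicates 2 and 3 and alpha GW8510 replicate 1 (adjusted p = 0.102 to 0.130). Ifi47 was called in neither line.

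Usp18, the protease that removes ISG15 and blocks the type I receptor as negative feedback, moved in opposite directions. It read 582, 600.2 and 538 with DMSO and 719, 813 and 785 with GW8510 in alpha cells, a rise with no overlap (log2 fold change 0.43 ± 0.07, adjusted p = 2.10e-04). In beta cells it read 2368, 2242 and 2391 with DMSO and 1749, 1706 and 1881 with GW8510, a fall with no overlap (log2 fold change -0.39 ± 0.07, adjusted p = 6.68e-04). Beta cells with DMSO held 4.07-fold more than alpha cells, and still had more than alpha cells when both were treated. Socs1, an inhibitor of JAK kinases, was called in neither line (log2 fold changes of 0.01 and 0.24).

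Across the lines, 8 members rose in both (B2m, Isg20, Bst2, Eif2ak2, Ifih1, Trim25, Irf1 and Cxcl10) where 9.07% of all genes did, and Tap2 alone fell in both (9.04% of all genes). In a limma fit of all probe sets, the other B2m probe set in beta cells had an adjusted p above 0.05. So did the other Eif2ak2 probe set in both lines and a further Trim25 probe set in alpha cells. Usp18 and Psme1 were called in opposite directions (3.65% of all genes). A further 14 members were called in alpha cells and not in beta cells (19.6% of all genes), 8 in beta cells and not in alpha cells (12.3% of all genes), and 8 in neither (46.4% of all genes), 5 of which lie in the dimmest 25% of genes. A call in 1 line does not show that the lines differ, so the difference of the effects was tested itself, and 18 members passed, against 28.5% of all genes. Of these, 12 had the lower fold change in beta cells and 6 the higher one (12% and 16.4% of all genes). B2m (log2 difference -1.68 ± 0.09, adjusted p = 1.03e-07), Tap1 (log2 difference -1.31 ± 0.12, adjusted p = 6.39e-06) and Tapbp (log2 difference -1.21 ± 0.09, adjusted p = 1.85e-06) stood in the first group with Ifih1 (log2 difference -0.97 ± 0.12, adjusted p = 9.33e-05), Ifitm3 (log2 difference -0.97 ± 0.14, adjusted p = 3.31e-04), Ifi35, Psmb9 and Usp18. Dhx58 (log2 difference 1.93 ± 0.20, adjusted p = 1.89e-05) and Rsad2 (log2 difference 1.03 ± 0.13, adjusted p = 8.17e-05) led the second group, with H2-K1, Stat2, Oasl2 and Psme1. Of the other 4, the call of Isg20 was lost without any 1 of alpha DMSO replicate 1, alpha GW8510 replicate 3, beta DMSO replicates 1 and 3 and beta GW8510 replicates 1 and 2 (adjusted p = 0.0510 to 0.0622), and that of Ifit2 without any 1 of alpha DMSO replicates 1 and 2, alpha GW8510 replicate 2, beta DMSO replicates 1 and 3 and beta GW8510 replicates 1 and 2 (adjusted p = 0.0529 to 0.0749). That of Ifitm2 was lost without any 1 of alpha DMSO replicates 1 and 2, alpha GW8510 replicate 3, beta DMSO replicate 1 and beta GW8510 replicates 1 and 2 (adjusted p = 0.0510 to 0.0667), and that of Nmi without any 1 of alpha DMSO replicates 1 and 3, alpha GW8510 replicates 1 and 3, beta DMSO replicates 1 and 2 and beta GW8510 replicates 1 and 2 (adjusted p = 0.0514 to 0.0647). By role, the difference was called for 6 of 10 antigen presentation genes, 6 of 14 antiviral effectors, 5 of 10 sensors and signalling genes and 1 of the feedback inhibitors.

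Other genes of the pathway gave the setting. Of 81 such genes read, 28 rose and 11 fell in alpha cells, and 20 rose and 5 fell in beta cells. The shares called were 48.1% and 30.9%, against 41.3% and 34.1% of all genes, and those of the lists below are read against the same background. Among the 14 genes of interferon receptors and JAK-STAT signalling, 6 rose and 3 fell in alpha cells, and Ifngr2, a chain of the interferon gamma receptor, moved most (log2 fold change 1.66 ± 0.09, adjusted p = 5.15e-08 in alpha cells and log2 fold change 0.59 ± 0.09, adjusted p = 4.66e-04 in beta cells). Its alpha arrays read 161, 179 and 154 with DMSO and 452, 539 and 579.9 with GW8510. The other Ifngr2 probe set gave 0.68 in alpha cells and 0.28 in beta cells (adjusted p = 7.38e-04 and 0.0790 in a limma fit of all probe sets). The size in alpha cells and the beta call therefore rest on 1 probe set. Socs3, which inhibits cytokine receptors, fell in beta cells (log2 fold change -0.31 ± 0.06, adjusted p = 0.00247). Its other probe sets gave -0.23 and -0.13 there (adjusted p = 0.377 and 0.385 in a limma fit of all probe sets). The Socs3 call therefore rests on 1 probe set. Of the 10 genes of class I assembly, 3 rose and 4 fell in alpha cells, and 2 rose and 2 fell in beta cells. The class I-like H2-M3, which presents formylated peptides, fell in both lines (log2 fold change -1.06 ± 0.10, adjusted p = 2.28e-06 in alpha cells and log2 fold change -0.54 ± 0.10, adjusted p = 8.75e-04 in beta cells). H2-Ke6 also fell in both (log2 fold change -0.57 in alpha cells, adjusted p = 3.00e-04, and -0.66 in beta cells, adjusted p = 1.59e-04), although it lies in the MHC region and encodes a steroid dehydrogenase, not a class I protein.

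Among 32 other interferon-induced genes, 10 rose and 2 fell in alpha cells, and 7 rose and 0 fell in beta cells, where the limma fit gave 9 with an unadjusted p under 0.05 in either direction. The shares called, 37.5% and 21.9%, were below those of all genes. Ifi30, a lysosomal thiol reductase of class II presentation, rose in both lines and read 1222, 1095 and 1247 with DMSO and 3105, 3188 and 3431 with GW8510 in beta cells (log2 fold change 1.45 ± 0.08, adjusted p = 1.33e-07, and log2 fold change 1.25 ± 0.08, adjusted p = 8.95e-08 in alpha cells). Lgals3bp, a secreted galectin-binding protein, was called higher in alpha cells (log2 fold change 1.45 ± 0.07, adjusted p = 1.86e-08) and in beta cells (0.44). Parp12, an antiviral ADP-ribosyltransferase, fell in alpha cells (log2 fold change -0.66 ± 0.08, adjusted p = 2.16e-05). Tor3a (log2 fold change 1.32 ± 0.17, adjusted p = 1.12e-04) and the GTPase gene Irgm1 (log2 fold change 0.66 ± 0.13, adjusted p = 0.00147) rose in beta cells. Both were also called higher in alpha cells (0.60 and 0.42). Of 12 genes listed under nucleic acid sensing, 4 rose and 2 fell in alpha cells, and 3 rose and 1 fell in beta cells. This list also held the interferon genes Ifnb1 and Ifng, which were called in neither line. Their log2 fold changes in alpha and beta cells were 0.09 and 0.22 for Ifnb1 and -0.02 and 0.03 for Ifng. Of 7 class II genes, 3 rose in alpha cells, and 0 were called in beta cells, where none had an unadjusted p under 0.05 in the limma fit. The last list held the standard catalytic subunits Psmb5, Psmb6 and Psmb7 with the proteasome activators Psme3 and Psme4 and the inhibitor Psmf1. In alpha cells 2 of these 6 were called higher, Psme4 (0.25) and Psmf1 (0.60), and no standard catalytic subunit was called (log2 fold changes of 0.07, 0.04 and 0.04). In beta cells Psmb5 (0.15), Psme3 (0.36), Psme4 (0.16) and Psmf1 (0.62) were called higher. Other probe sets of Psmf1 gave -0.12, 0.01 and 0.10 there, and those of Psme3 -0.13 and 0.17. None of these had an adjusted p under 0.05 in a limma fit of all probe sets. The beta calls of Psmf1 and Psme3 therefore rest on 1 probe set each. For Psmf1 in alpha cells, its other probe sets gave 0.13, 0.32 and 0.07 (adjusted p = 0.114, 0.00845 and 0.659 in the same fit).

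**Figure D4:**
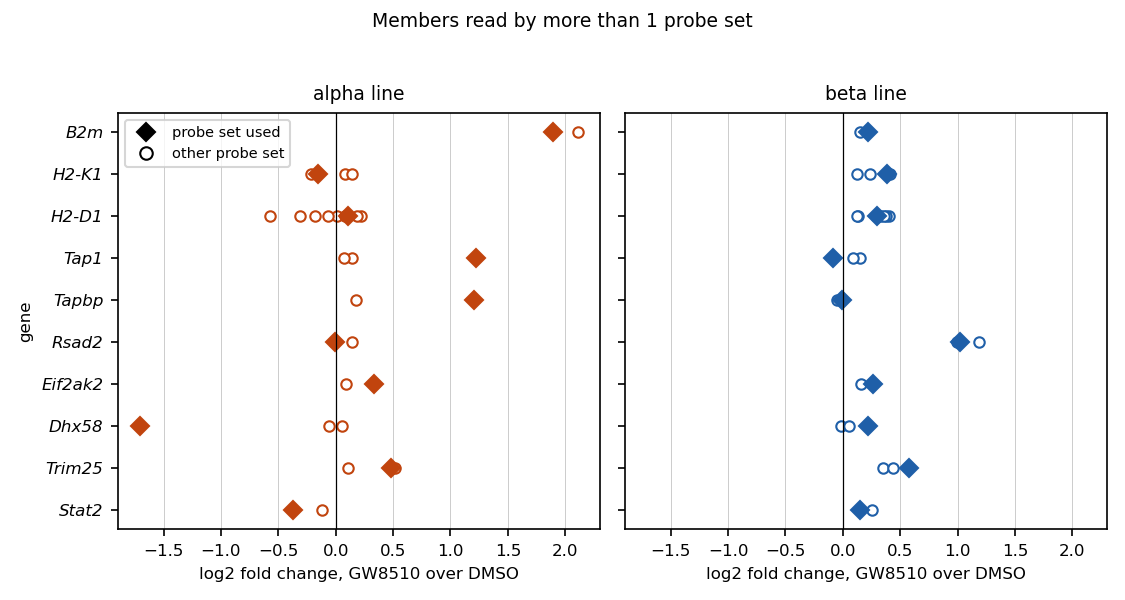
Log2 fold change of GW8510 over DMSO by probe set for the 10 members with more than 1 probe set, in alpha cells (left) and beta cells (right). Diamonds are the probe sets used and open circles the others; B2m, Rsad2 and Trim25 in beta cells lie near their other probe sets, while Tap1, Tapbp and Dhx58 in alpha cells stand away from theirs.

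The probe sets of a gene gave different answers for several members. In alpha cells, the 2 of B2m gave 1.90 and 2.11. The other probe sets of Tap1, Tapbp and Dhx58 did not repeat the change there (adjusted p = 0.111 to 0.836 in a limma fit of all probe sets). For these 3 genes the mean over all probe sets gave a call in the same direction, as did each of the alternative settings. The lowest log2 fold change was 0.48 for Tap1 and 0.69 for Tapbp, and the smallest fall was -0.57 for Dhx58. All of these settings include the probe set used, so they cannot check it against other probes. H2-D1 ranged from -0.57 to 0.22 over its 9 probe sets in alpha cells and from 0.13 to 0.41 in beta cells.

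Markers of other cell types were read on the same arrays. Over 14 leukocyte markers, the summed intensity was 886 to 934 in alpha cells with DMSO and 1449 to 1727 with GW8510, and 1132 to 1151 and 1223 to 1458 in beta cells. Ptprc, the pan-leukocyte marker, was at the lower bound of 20 on 11 of the 12 arrays and at 23.7 on the other, and Itgb2 alone read 70.3 ± 5.14 with DMSO and 631 ± 43.9 with GW8510 in alpha cells. Over 6 endothelial markers the sum was 272 to 282 and 471 to 575 in alpha cells, with Pecam1 at 44.3 and 42.6 and Tek at 21.4 ± 0.828 and 219.7 ± 22.7, and over 6 fibroblast markers it was 392 to 457 and 530 to 653 in beta cells. In alpha cells the sum over 6 acinar and duct markers was 862 to 905 with DMSO and 1082 to 1151 with GW8510, and that over 6 beta cell markers 869 to 949.6 and 1403 to 1504. Their part in the changes of the members was not tested.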

How the data were processed

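RNA of 12 cultures was read on Affymetrix arrays. The deposited values are intensities on a linear scale, 1 per probe set, which the authors made with RMA (in general background correction, normalization between arrays and summary of the probes); its version was not given in the sources used here. They run from 20 to 20000, bounds taken to be the authors', so changes at a bound are compressed. Of 22690 probe sets, 64 controls, 1555 without a symbol and 691 with several symbols were left out, 20380 had 1 symbol, and the 330 at a bound on every array were not used. The remaining probe set with the highest mean was kept for each of 12255 genes, 4854 of which had more than 1.

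Log2 values were fitted with limma 3.58.1 in R 4.3.3 as 4 group means over 12 arrays, with 4 contrasts (GW8510 over DMSO in each line, the difference of these, and the lines with DMSO) and Benjamini-Hochberg adjustment over all genes. The script was tested on simulated data. Arrays give no read depth, and 3 arrays a group limit the precision. Alternatives changed the pseudocount (1 or 16), centring, normalization, low-value filter, probe set, spread, weights, arrays in the fit, replicate block or 1 array left out. The members and lists were chosen with earlier results of these data known. Values on every array are given for members that were called with arrays apart (at most 12 per line, by size of change), for differences between the lines called with at least 0.5 on the log2 scale, and for B2m, Stat2, Irf1, Irf9 and Psmb8. Of the other pathway genes, up to 3 rises and 3 falls per line are named.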

Additional observations from a re-analysis of the deposited data

Results flagged for a closer look

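The effect of GW8510 differed between the lines, by the limma test of the difference itself, for 18 of the 41 members, against 28.5% of all genes. On the log2 scale, as the fold change in beta cells minus that in alpha cells, the antigen presentation genes gave -1.68 for B2m, -1.31 for Tap1, -1.21 for Tapbp and -0.83 for Psmb9, against 0.53 for H2-K1 and 0.42 for Psme1. Among the antiviral effectors the differences were -0.97 for Ifitm3, -0.43 for Ifit2, -0.43 for Ifitm2 and -0.30 for Isg20, against 1.03 for Rsad2 and 0.52 for Oasl2. The sensors and signalling genes gave 1.93 for Dhx58 and 0.52 for Stat2, against -0.97 for Ifih1, -0.84 for Ifi35 and -0.43 for Nmi. Usp18 gave -0.82. The values of Tap1, Tapbp and Dhx58 rest on 1 probe set each, since their other probe sets gave differences of 0.00 and 0.02, of -0.23, and of -0.07 and 0.11. Other H2-K1 probe sets gave 0.15, 0.63 and -0.01, and the other Stat2 probe set gave 0.37.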

How the results depend on the processing

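Of the members called, 17 of 25 in alpha cells and 10 of 19 in beta cells stayed called under each other setting in which they were fitted, at most 24, as did 14 of 18 differences between the lines and 24 of 30 differences with DMSO, at most 23. The fit without the dimmest 25% of genes did not hold Ifitm3, Oasl2, Irf7 and Gbp3, which count among these. Leaving out 1 array at a time gave 16 to 21 members higher and 3 to 5 lower in alpha cells, 11 to 16 higher and 3 to 5 lower in beta cells, 6 higher and 8 to 14 lower for the difference, and 21 to 23 higher and 5 to 8 lower between the lines with DMSO. The replicate numbers did not pair the arrays (correlations of deviations -0.13 to 0.08), and with a replicate block 3 members rather than 5 were called lower in alpha cells. The block also ended the alpha call of Ifitm1 (adjusted p = 0.0708), the beta calls of Ifit2 (0.0586), Eif2ak2 (0.0638) and Gbp2 (0.0510), and the differences of Ifit2 (0.0571), Ifitm2 (0.0510) and Nmi (0.0713). With only the arrays of the groups compared, the alpha calls of Bst2 (adjusted p = 0.0771), Irf2 (0.0943) and Igtp (0.128) and the beta call of Eif2ak2 (0.0589) ended. A fit with the block could not be estimated for the lines with DMSO. H2-D1 in alpha cells turned from 0.11 to -0.57 with a probe set of the specific design. The median log2 fold change of antigen presentation minus that of the antiviral effectors was -0.02 in alpha cells. It became 0.034 with quantile normalization, -0.091 with the mean of all probe sets, -0.093 with the specific design, -0.10 without alpha GW8510 replicate 1 and beta GW8510 replicate 3 (an alternative chosen after seeing the data), and -0.10 to 0.022 without 1 array. In beta cells it was -0.14, and became -0.060 with quantile normalization, -0.22 without the dimmest 25% of genes, -0.087 with array weights, -0.079 without those 2 arrays and -0.24 to -0.079 without 1 array. The cause of these shifts was not tested. Median centring moved the median of all genes between the lines with DMSO from -0.05 to -0.13. For the 9 members in the dimmest 25% of genes, low signal limits what can be detected.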
